A study of Mus musculus with 12 samples.

Results

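Chemokines are small secreted proteins that steer migrating cells by binding receptors that pass through the membrane and signal through G proteins. They are named after the spacing of their first cysteines (CC, CXC, XC and CX3C), and most receptors bind several ligands. In skin, keratinocytes, fibroblasts, vessels and resident leukocytes all make them: some are made constantly and place T cells and dendritic cells in the tissue, and others are induced in inflammation and call in neutrophils, monocytes and effector T cells. The mouse genes were chosen by name: protein-coding genes whose symbol is that of a CC or CXC ligand or receptor, with Cx3cl1, Cx3cr1, Xcl1 and Xcr1. That gave 57 of the 34303 gene symbols in the table, 38 ligands and 19 receptors. The gene of the atypical receptor Ackr3 is among them under its older symbol Cxcr7. An additional 3 entries that match by name, Cxcl11, Ccl19-ps1 and Ccl19-ps3, are not annotated as protein-coding in the table and were left out.

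RNA from whole tissue of C57Bl6 mice was sequenced in 12 libraries. Skin was represented by 3 WT and 3 TAp63-/- libraries, and cutaneous squamous cell carcinoma (cSCC) by 2 WT and 4 TAp63-/- libraries. TAp63-/- animals lack the p63 isoforms that carry the transactivation domain. Skin was untreated dorsal skin taken at the age of 4 weeks. Tumours came from mice older than 35 weeks that had received chronic ultraviolet radiation, 2.5 kJ/m2 at 3 sessions a week. Tissue is thus tied to age and to radiation in both genotypes, and those cannot be told apart from the tumour state. Sample titles also split by tissue, beginning with LM for all tumours and with Su for all skin. The labels do not say what these letters mean. The labels do not say whether each library is a separate animal, so p-values measure the spread between these samples. Levels are in FPKM, fragments per kilobase of transcript scaled by library, and being per length they can be set side by side between genes.

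Some libraries stand apart. All 6 skin libraries and TAp63-/- cSCC 1 had male transcripts (73.4 to 127 FPKM summed over Y-linked genes), while the other 5 tumours had at most 0.0824 FPKM of these and at least 21.5 FPKM of Xist. WT cSCC 2 was the tumour most like skin, with correlations of 0.79 to 0.88 across genes against 0.72 to 0.83 for the other tumours. Summed keratinocyte markers reached 11020.1 to 34852 FPKM in tumours and 5518 to 9275 in skin, and summed muscle markers 30.3 to 366 in tumours and 2749 to 5616 in skin. The whole-gene level of Trp63 was 84.5 to 119 FPKM in skin and 97.3 to 258 in tumours, which does not check the deletion of single isoforms.

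Of the 57 genes, 47 reached 1 FPKM in at least 2 of the 12 libraries and were tested, 34 ligands and 13 receptors. The 10 that did not are Ccl26, Ccl28, Cxcl15, Cxcl17, Ccr3, Ccr6, Ccr10, Cxcr1, Cxcr5 and Xcr1. Ccl26 was listed at 0 in every library, and a listed 0 does not show that a transcript is absent. A total of 7 genes (Ccl4, Ccr7, Ccr8, Ccr9, Cxcl3, Cxcl5 and Cxcr2) passed only through the tumours. Counts among the tested genes are therefore a description and not support for a direction.

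The 4 stretches below precede 4 of the 10 ligands called higher in TAp63-/- tumours than in TAp63-/- skin. Only stretches that hold a match are shown, so they do not stand for all 10. Neither motif below was found for any other of these ligands, though not every gene had a promoter window. They run from position -250 to -61 before the annotated start site (RefSeq, build GRCm38.p6), with matches to a motif in capitals. For Cxcl3 (chr5:90785851-90786040, plus strand), Cxcl1 (chr5:90890995-90891184, plus strand) and Cxcl2 (chr5:90903649-90903838, plus strand) the capitals mark the NF-kB motif, GGG, any 2 bases and TTTCC, on either strand. For Cxcl10 (chr5:92348950-92349139, minus strand) they mark the interferon-response motif, GAAA, any 2 bases and GAAA, also searched on both strands.
Cxcl3: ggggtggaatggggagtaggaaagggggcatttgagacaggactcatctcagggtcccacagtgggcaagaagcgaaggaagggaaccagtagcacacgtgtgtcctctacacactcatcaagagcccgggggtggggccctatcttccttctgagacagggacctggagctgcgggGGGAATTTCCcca
Cxcl1: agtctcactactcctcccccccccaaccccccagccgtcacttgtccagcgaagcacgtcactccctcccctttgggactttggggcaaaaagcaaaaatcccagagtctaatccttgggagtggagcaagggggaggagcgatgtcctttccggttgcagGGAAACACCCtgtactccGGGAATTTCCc
Cxcl2: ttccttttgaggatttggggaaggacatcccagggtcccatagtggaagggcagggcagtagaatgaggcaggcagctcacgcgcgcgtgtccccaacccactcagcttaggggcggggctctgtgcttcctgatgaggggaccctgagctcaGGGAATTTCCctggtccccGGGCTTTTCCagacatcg
Cxcl10: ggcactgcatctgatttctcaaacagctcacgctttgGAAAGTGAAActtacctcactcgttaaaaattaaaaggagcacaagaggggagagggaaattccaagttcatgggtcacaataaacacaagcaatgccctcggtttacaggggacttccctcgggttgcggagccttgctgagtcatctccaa
Windows held the 300 bases from 250 before to 50 after a start site. The NF-kB motif was found for 6 of the 42 genes with a RefSeq window (Ccl20, Ccl9, Ccr3, Cxcl1, Cxcl2 and Cxcl3). The 42 genes have 49 windows, and 6 of these held it, against 1.63% of all 32851 such windows. Cxcl1, Cxcl2 and Cxcl3 are related genes of the same cluster, so their windows are not separate observations. All 3 CXC genes hold the match GGGAATTTCC, at -73 to -64 in Cxcl3, -71 to -62 in Cxcl1 and -97 to -88 in Cxcl2, and the latter pair holds another match each. The interferon-response motif was found for Ccl19, Cxcl10 and Cxcl14, in 3 of the 49 windows, against 3.44% of all windows. The AP-1 motif TGANTCA, searched the same way, was found for 8 genes (Ccl27a, Ccl27b, Ccl28, Ccl9, Ccr3, Ccr4, Cxcl9 and Cxcl10). It was in 9 of the 49 windows, against 7.81% of all windows. No match to one motif overlapped a match to another in the windows of these genes. A match describes letters and not binding, and no binding was measured here.

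Skin of both genotypes was dominated by a few ligands. Ccl8, a CC ligand that binds Ccr8 in the mouse, was the most abundant in all 6 skin libraries, at 624, 756 and 957 FPKM in WT and 957, 781 and 662 in TAp63-/-. It was followed by Ccl27a and Ccl27b, the keratinocyte chemokine that draws T cells with Ccr10 to the epidermis. All ligands summed to 1623 to 2448 FPKM in skin and to 239 to 1890 in tumours, with TAp63-/- cSCC 3 lowest. In tumours Ccl8 stood at 73.8 and 531 FPKM in WT and at 317, 671, 47.5 and 338 in TAp63-/-. It led 5 of the 6, the exception being WT cSCC 1, where Ccl2 led. The Ccl8 ranges of skin and tumours overlapped through TAp63-/- cSCC 2, and the change of -1.70 ± 0.82 (SE) between TAp63-/- tumours and skin was not called (limma adjusted p = 0.145).

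The make-up shifted between tissues. The class holding Ccl17, Ccl20, Ccl22, Ccl25, Ccl27a, Ccl27b and Ccl28 took 26.2% to 35.2% of summed ligand FPKM in skin and 1.68% to 9.65% in tumours. The CXC ligands that draw neutrophils took 0.0143% to 0.123% in skin and 1.33% to 20.2% in tumours. The interferon-induced Cxcl9 and Cxcl10 together took 0.265% to 0.678% in skin and 1.92% to 13.8% in tumours. These shares add to 100, so a fall in one class raises the others, and the ranges are descriptions without a test.

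**Figure D1:**
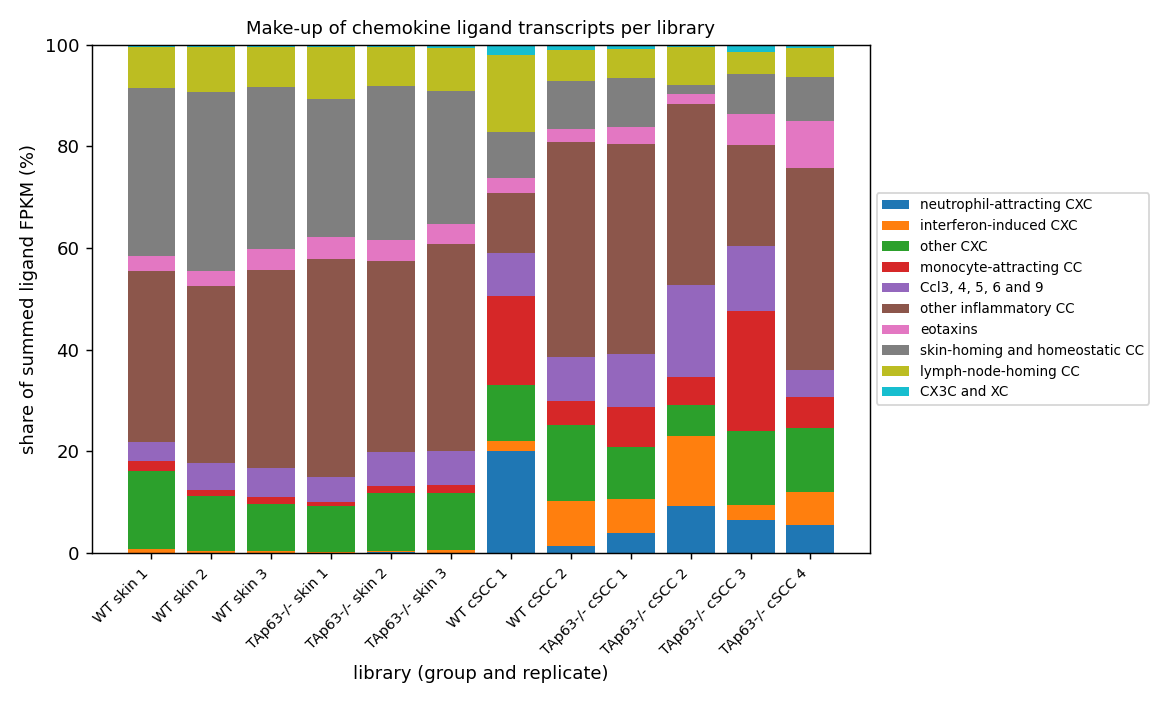
Share of summed ligand FPKM (y axis, percent) taken by each class of ligands in each of the 12 libraries (x axis). Skin columns are filled mainly by the Ccl8 class and by the class of Ccl27a and Ccl27b, and the latter falls to 9.65% or less in every tumour.

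Tumours also differed more among themselves. The median SD of log2(FPKM + 1) within groups was 0.84 over the 47 genes in tumours, against 0.40 over all 14752 tested genes, and in skin it was 0.32 against 0.22. Cxcl9 had the highest tumour SD of the 47, 2.49. TAp63-/- cSCC 2 was the highest tumour for 24 of the 47 genes and the lowest for 0, and TAp63-/- cSCC 3 was the lowest for 30 and the highest for 0. Those libraries also held the most and the least leukocyte marker transcript among the tumours (273 and 38.3 FPKM over Ptprc, Cd53, Coro1a and Laptm5). Its part in these values was not tested. In whole tissue, fewer cells of a type and less RNA per cell cannot be told apart.

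**Figure D2:**
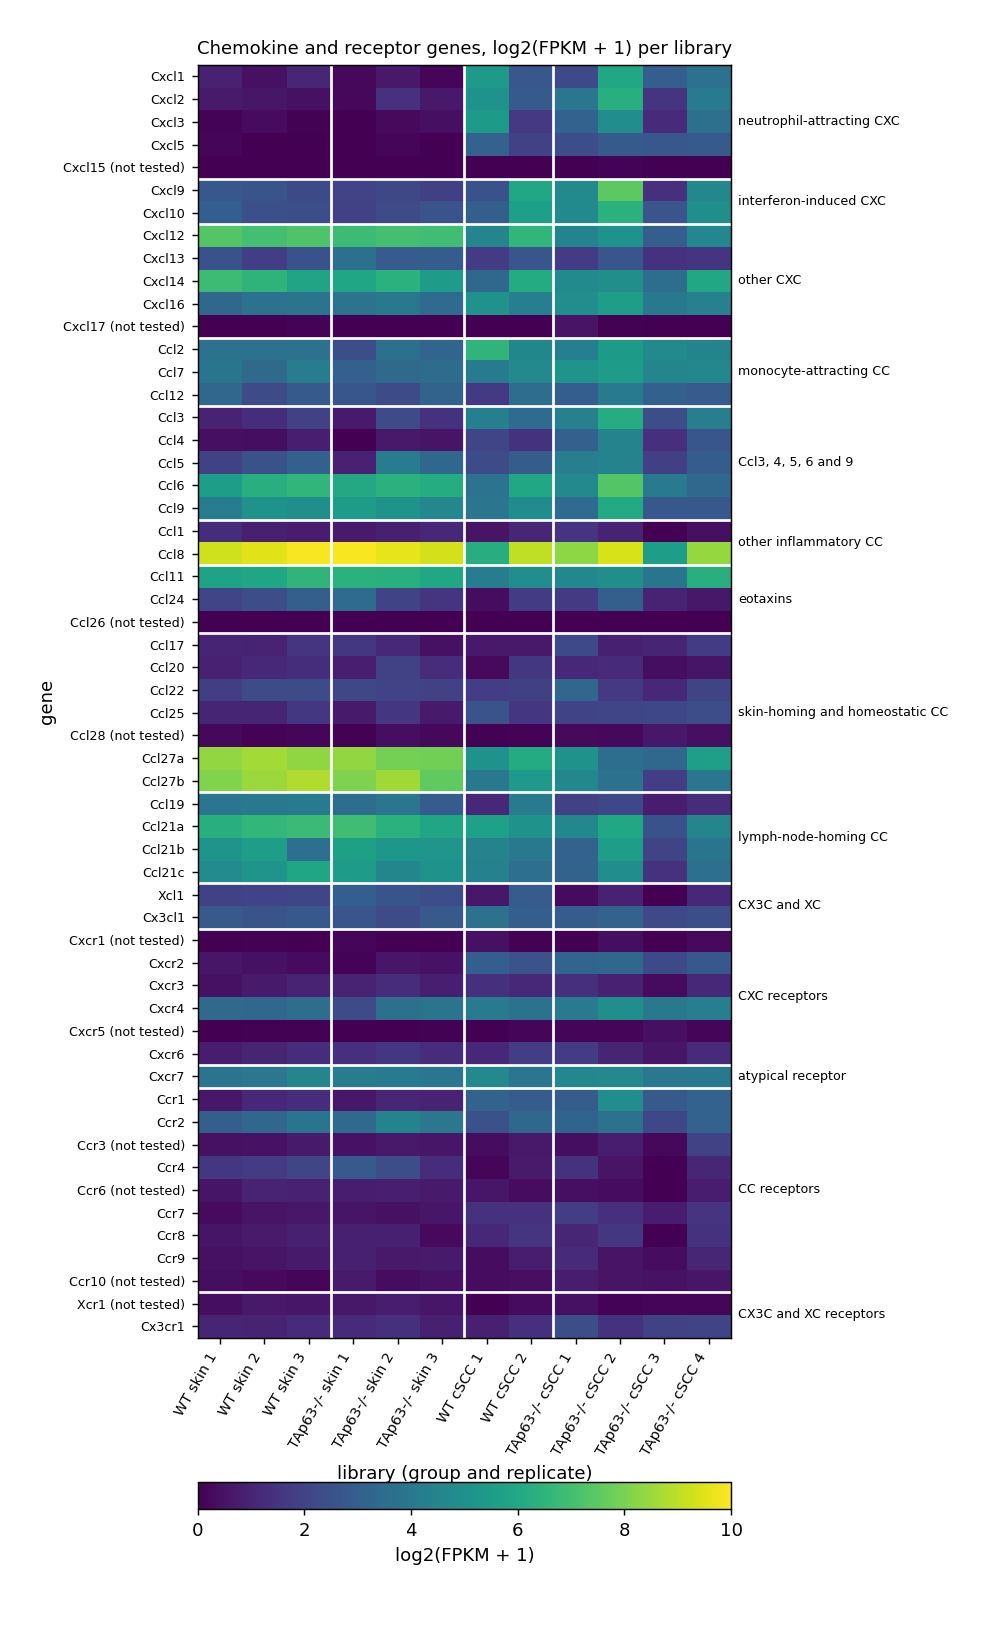
Level of 56 of the genes (rows, by class) in each library (columns), as log2(FPKM + 1) on the color scale. The upper rows turn from dark in skin to bright in tumours for Cxcl1, Cxcl2, Cxcl3 and Cxcl5, while Ccl27a and Ccl27b dim, and TAp63-/- cSCC 3 is the darkest tumour column.

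The loss of TAp63 was compared within skin first. None of the 47 genes differed between TAp63-/- and WT skin in limma, where 0.0203% of all tested genes were called. An unadjusted p under 0.05 was reached by 3 of the 47, against 5% of all tested genes. The median change was -0.05 over the 47 and 0.02 over all tested genes, on the log2(FPKM + 1) scale used for every change below. That scale understates the change of genes near or under 1 FPKM.

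On the higher side, the smallest p values were those of Xcl1, Cxcl13 and Cxcr6. Xcl1, which draws cross-presenting dendritic cells, was at 2.85, 2.99 and 3.26 FPKM in WT skin and at 6.86, 5.02 and 4.34 in TAp63-/- skin. Its groups did not overlap, and the change was 0.65 ± 0.17 (limma adjusted p = 0.923). Cxcl13, the B cell attractant, was at 4.72, 2.62 and 4.68 FPKM against 11.99, 6.32 and 6.54, also without overlap, with a change of 0.87 ± 0.30 (adjusted p = 0.923). Cxcr6, a receptor of tissue-resident T cells, was at 0.751, 1.03 and 1.45 FPKM against 1.52, 2.11 and 1.43, with overlap (0.38 ± 0.17, adjusted p = 0.923). The locus of Fyco1 overlaps that of Cxcr6 by 5278 bases, so reads of Fyco1 may be counted with Cxcr6. On the lower side were Cxcl9, Ccl27a and Cxcl1. Cxcl9, which attracts T cells with Cxcr3, was at 5.71, 5.01 and 3.78 FPKM in WT skin and at 3.03, 3.45 and 2.72 in TAp63-/- skin, without overlap (change -0.51 ± 0.17, adjusted p = 0.923). Ccl27a and Cxcl1 overlapped, with changes of -0.41 and -0.47.

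The next question was how tumours differ from skin in each genotype. In WT, 5 of the 47 genes were called, 10.6%, against 11.4% of all tested genes. The share of these genes is thus near the background. Cxcl5, Cxcr2 and Ccr1 rose (4.66% of all tested genes rose), and Ccl27a and Ccl27b fell (6.77% of all fell). In TAp63-/-, 23 of the 47 were called, 48.9%, against 27.2% of all tested genes. On the higher side were 15 of the 47 (13% of all tested genes) and on the lower side 8 (14.2% of all). Of the 15, 5 had passed the filter through the tumours alone, as had 2 of the 3 that rose in WT. All the lower calls had passed in both tissues. The higher counts thus partly reflect the filter. The median change over the 47 was 0.08, against 0.10 over all tested genes, and in WT 0.03 against 0.04.

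Sex moved with tissue in these libraries, and only TAp63-/- cSCC 1 informs it as a covariate. With it, the TAp63-/- comparison held 6 higher and 2 lower calls and the WT comparison 1 higher and 0 lower. In TAp63-/-, Cxcl5, Cxcr2, Ccl7, Ccr7, Cx3cr1, Ccl27a and Ccl27b kept their calls and Ccl22 gained one. The calls of 16 genes were lost at limma adjusted p of 0.0557 to 0.44: Cxcl1, Cxcl2, Cxcl3, Cxcl10, Ccl2, Ccl3, Ccl4, Ccl25, Ccr1 and Cxcr4 on the higher side and Ccl19, Ccl21a, Ccr4, Cxcl12, Cxcl13 and Xcl1 on the lower side. In WT, Cxcr2 kept its call, and those of Cxcl5, Ccr1, Ccl27a and Ccl27b were lost (0.0628 to 0.405). The fit of only the 2 groups ended the TAp63-/- calls of Cxcl2, Cxcl10, Ccl21a, Ccr4, Ccr7, Cx3cr1 and Cxcr4. The fit without a filter ended those of Cxcl3, Cxcl10, Ccl19, Ccl21a and Cxcr4 in TAp63-/- and of Ccr1 in WT. Cxcl10 and Cxcr4 were also lost with median-of-ratios rescaling, Cxcr4 with array weights and Ccr4 with a pseudocount of 0.1. The losses given gene by gene below are those on leaving out 1 library.

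All 5 genes called in WT were called in TAp63-/- in the same direction, and 18 more were called in TAp63-/- alone. The 2 comparisons share no library, but they rest on 2 and 4 tumours, and the difference between them was tested directly. None of the 47 was called for a different tumour-skin change in the 2 genotypes. The lowest limma adjusted p of the genotype by tissue interaction was 0.9998, with 0.0271% of all tested genes called. An unadjusted p under 0.05 was reached by 3 of the 47, 6.38%, against 3.01% of all tested genes. The smallest p values of the interaction were those of Ccl7, Cx3cr1 and Ccl17 on the positive side (1.07, 0.78 and 0.91) and of Xcl1, Cxcl13 and Cxcr3 on the negative side (-1.84, -1.25 and -0.67). The calls made in TAp63-/- alone are therefore not shown to be particular to that genotype.

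**Figure D3:**
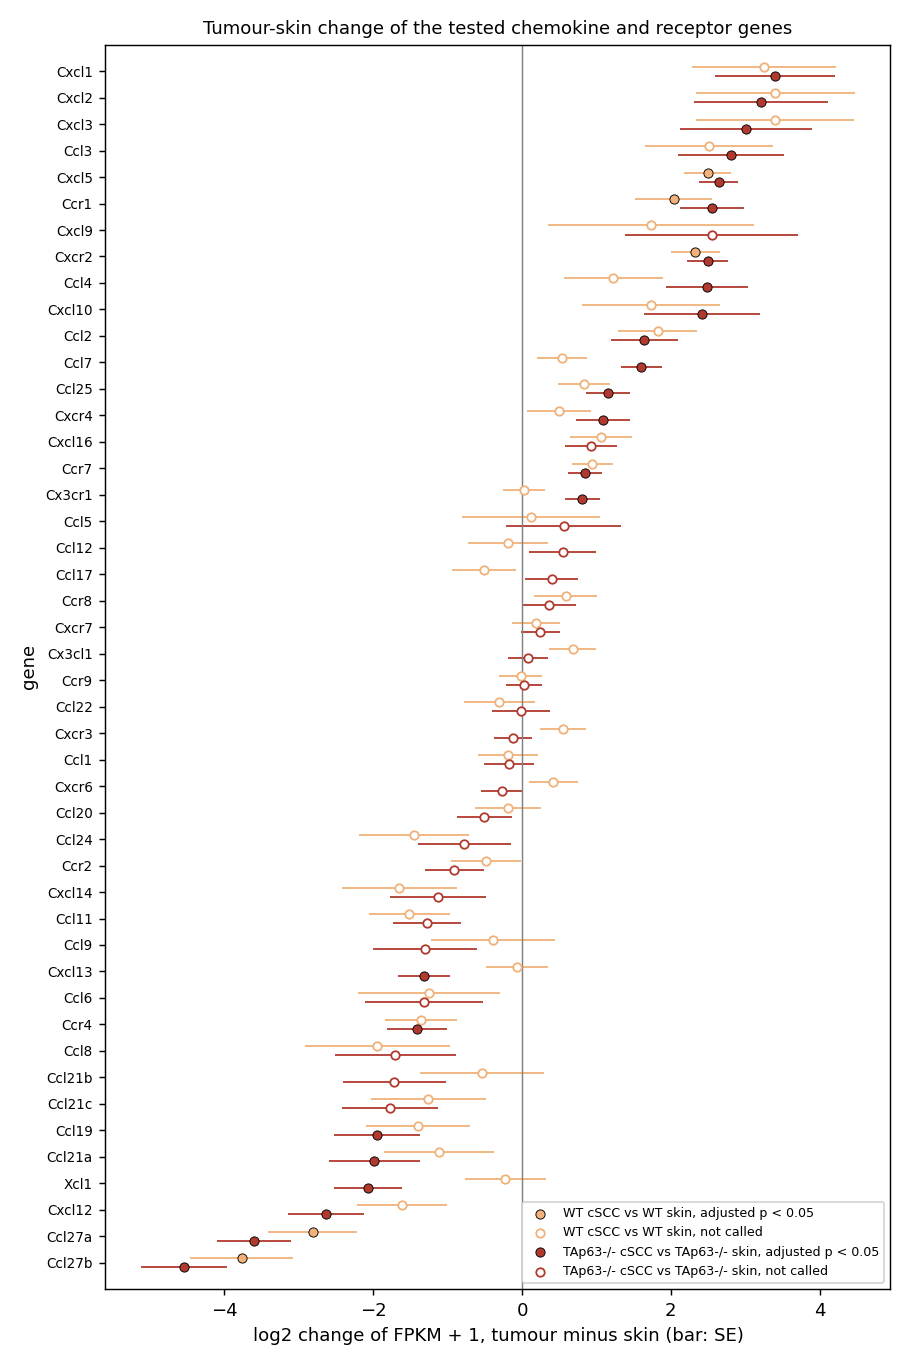
Tumour minus skin change of 46 tested genes (rows) on the log2(FPKM + 1) scale (x axis), with the SE as a bar, for WT (light) and TAp63-/- (dark). Filled points passed an adjusted p of 0.05: 5 in WT and 23 in TAp63-/-, where Cxcl1 stands at 3.40 and Ccl27b at -4.54.

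Among the chosen genes, ligands of Cxcr2, the receptor that brings neutrophils into tissue, lie together on chromosome 5 (mm10 chr5:90759299-90905909). They are Cxcl5, Cxcl3, Cxcl1 and Cxcl2, and Cxcl15 lies with them. All 4 of these chosen genes that could be tested were called higher in TAp63-/- tumours (13% of all tested genes were). Their median change was 3.11. In WT tumours the median was 3.33 and only Cxcl5 was called (4.66% of all tested genes were called higher). The platelet chemokine Ppbp, which the name rule leaves out, was not called. Its changes were 1.78 ± 0.68 in WT (limma adjusted p = 0.114) and 0.74 ± 0.57 in TAp63-/- (0.359). Cxcl3 and Cxcl5 passed the filter through the tumours alone, and Cxcl1 and Cxcl2 reached 1 FPKM in only 1 skin library each. The count of 4 is therefore a description and not support for a direction.

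Cxcl5, made largely by epithelial cells, was at 0.0896, 0 and 0 FPKM in WT skin and at 0, 0.105 and 0 in TAp63-/- skin. It reached 7.87 and 2.80 in WT tumours and 4.13, 6.09, 5.64 and 6.16 in TAp63-/- tumours. Every tumour lay above every skin library, and the 4 TAp63-/- tumours lay between 4.13 and 6.16. The change was 2.50 ± 0.31 in WT (limma adjusted p = 0.00106) and 2.64 ± 0.26 in TAp63-/- (6.13e-05).

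Cxcl1 was at 0.905, 0.383 and 1.08 FPKM in WT skin, 0.170, 0.610 and 0.0955 in TAp63-/- skin, 41.2 and 5.65 in WT tumours, and 3.64, 63.4, 6.90 and 12.7 in TAp63-/- tumours. All tumours lay above all skin libraries, with WT cSCC 1 and TAp63-/- cSCC 2 far above the rest. It rose by 3.40 ± 0.81 in TAp63-/- (adjusted p = 0.0111), and the change of 3.25 ± 0.97 in WT was not called (0.053). Cxcl2 was at 0.634, 0.511 and 0.379 FPKM in WT skin, 0.148, 1.65 and 0.619 in TAp63-/- skin, 34.5 and 6.14 in WT tumours, and 14.2, 76.8, 1.90 and 17.01 in TAp63-/- tumours. Again no tumour fell into the skin range, though TAp63-/- cSCC 3 lay just above it. Cxcl2 rose by 3.21 ± 0.89 in TAp63-/- (0.0225) and stood 3.40 ± 1.07 higher in WT without a call (0.0637). The TAp63-/- call was lost without TAp63-/- skin 1 or without TAp63-/- skin 3.

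Cxcl3 was at 0.0645, 0.226 and 0.0488 FPKM in WT skin, 0, 0.191 and 0.342 in TAp63-/- skin, 43.0 and 2.14 in WT tumours, and 7.95, 28.8, 1.27 and 11.9 in TAp63-/- tumours. It was highest in the same WT tumour as Cxcl1 and in TAp63-/- cSCC 2. Its rise of 3.01 ± 0.89 in TAp63-/- (adjusted p = 0.0291) was lost without TAp63-/- cSCC 2, TAp63-/- cSCC 4 or any 1 of the TAp63-/- skin libraries. Cxcl15, the remaining chosen gene of the cluster, was listed at 0 in 11 libraries and at 0.0584 FPKM in TAp63-/- cSCC 2.

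Their receptor Cxcr2 (chr1:74153989-74161238) was at 0.506, 0.370 and 0.222 FPKM in WT skin and at 0.0667, 0.517 and 0.404 in TAp63-/- skin. It reached 7.01 and 4.82 in WT tumours and 8.56, 9.06, 3.68 and 5.68 in TAp63-/- tumours. No tumour overlapped with skin. Cxcr2 rose by 2.33 ± 0.33 in WT (limma adjusted p = 0.00196) and by 2.49 ± 0.28 in TAp63-/- (0.000123), and both calls held under every alternative run. Its neighbour Cxcr1 was at 0.379 FPKM or less in every library and was not tested.

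Of 11 neutrophil markers, 5 could be tested: 2 were called higher in WT tumours and 3 in TAp63-/- tumours, and 0 lower. S100a8 and S100a9, which stressed keratinocytes also make, rose in both genotypes, and Csf3r, the receptor of the neutrophil growth factor, rose in TAp63-/- by 1.61 ± 0.48 (adjusted p = 0.0296). Summed over the 11 markers, the level was 19.3 to 47.9 FPKM in WT skin, 8.002 to 136 in TAp63-/- skin, 1605 to 2476 in WT tumours and 450.0 to 21135 in TAp63-/- tumours. In the tumours it came nearly all from S100a8 and S100a9. That sum was highest in TAp63-/- cSCC 1, which had the lowest Cxcl1 of the 6. The other tested markers, Csf3r, Mmp8 and Retnlg, were each highest in TAp63-/- cSCC 2 and next in WT cSCC 1. Those tumours were also highest in Cxcl1, Cxcl2 and Cxcl3. Csf3r was at 15.8 FPKM in TAp63-/- cSCC 2 and 9.71 in WT cSCC 1, against 2.49 to 6.13 in the other tumours. The defining marker Ly6g was at 0.893 FPKM or less in every library and listed at 0 in 7 of the 12, and the granule genes Mpo and Elane did not pass 0.298. The part of neutrophil number in the chemokine values was not tested.

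**Figure D4:**
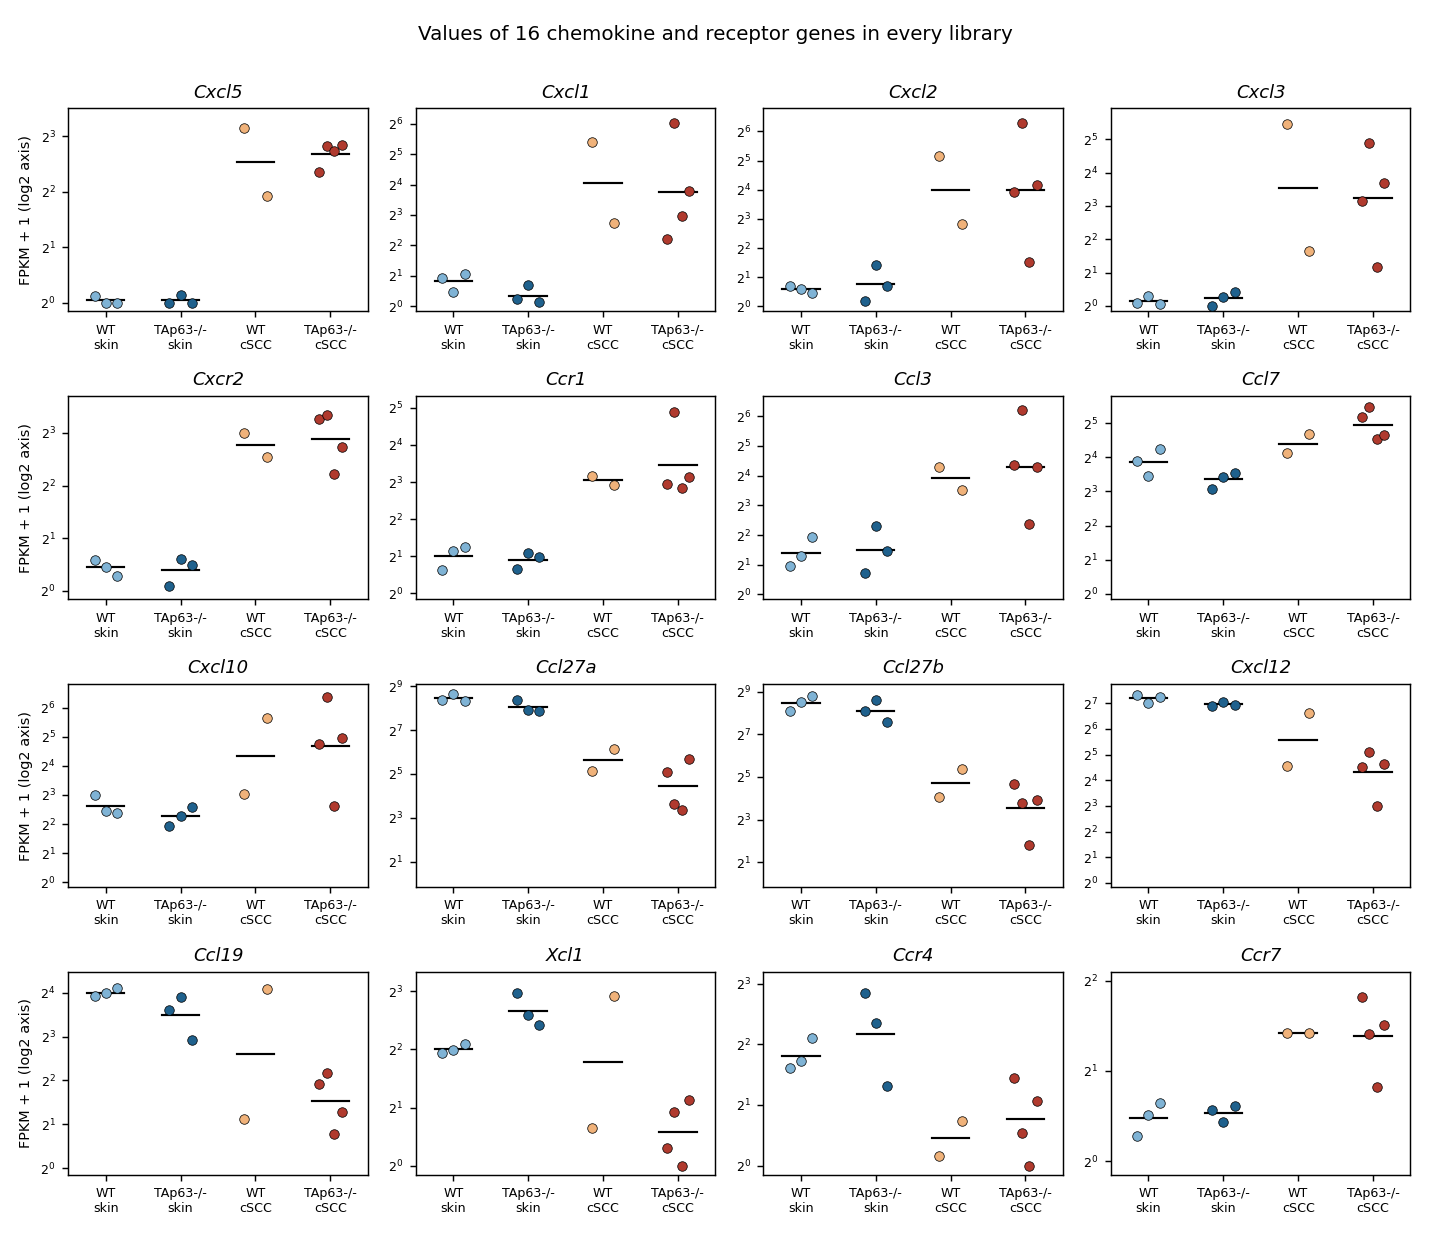
FPKM + 1 (y axes, log2 scale) of 16 genes in every library, by group (x axes); points are libraries and bars are group means of log2 values. Tumours lie above all skin libraries for Cxcl5, Cxcl1, Cxcl2, Cxcl3, Cxcr2, Ccr1, Ccl3 and Ccr7, and below them for Ccl27a, Ccl27b and Cxcl12.

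The monocyte attractants Ccl2 and Ccl7, ligands of Ccr2, lie side by side on chromosome 11 (chr11:82035571-82047525). Ccl2 was at 12.2, 12.4 and 12.3 FPKM in WT skin, 4.35, 11.9 and 8.48 in TAp63-/- skin, 91.5 and 23.0 in WT tumours, and 18.9, 43.3, 26.2 and 21.8 in TAp63-/- tumours. All tumours lay above all skin libraries. It rose by 1.64 ± 0.45 in TAp63-/- (limma adjusted p = 0.0201, lost without TAp63-/- skin 1), and in WT it stood 1.82 ± 0.53 higher at an adjusted p of 0.0505. Ccl7 was at 13.9, 9.97 and 18.0 FPKM in WT skin, 7.49, 9.85 and 10.6 in TAp63-/- skin, 16.3 and 24.9 in WT tumours, and 35.2, 43.4, 22.3 and 24.0 in TAp63-/- tumours. The TAp63-/- groups did not overlap and the WT groups did. Ccl7 rose by 1.60 ± 0.28 in TAp63-/- (0.00194), a call that held under every alternative run, and the change in WT was 0.54 ± 0.33 (0.319). Their difference between genotypes was 1.07 ± 0.43 with an interaction adjusted p of 1. Ccl12, another ligand of Ccr2, was not called in either genotype.

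Ccr2 itself did not follow these ligands. It was at 7.08, 8.83 and 13.8 FPKM in WT skin, 9.71, 21.97 and 14.7 in TAp63-/- skin, 4.58 and 9.15 in WT tumours, and 8.25, 12.1, 3.48 and 7.94 in TAp63-/- tumours. Tumours and skin overlapped in both genotypes, with changes of -0.49 ± 0.47 in WT (adjusted p = 0.541) and -0.91 ± 0.39 in TAp63-/- (0.109).

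Of the 5 inflammatory CC ligands that lie together on chromosome 11 (chr11:83525778-83664683), Ccl3 and Ccl4 rose in TAp63-/- and Ccl5, Ccl6 and Ccl9 were not called. Ccl3, which macrophages and neutrophils secrete, was at 0.940, 1.47 and 2.78 FPKM in WT skin, 0.639, 3.99 and 1.74 in TAp63-/- skin, 18.7 and 10.4 in WT tumours, and 19.4, 72.4, 4.23 and 18.4 in TAp63-/- tumours. TAp63-/- cSCC 2 was the highest and TAp63-/- cSCC 3 lay just above skin. The change was 2.81 ± 0.72 in TAp63-/- (limma adjusted p = 0.0152, lost without TAp63-/- skin 1) and 2.51 ± 0.86 in WT (0.0832). Ccl4 was at 0.345, 0.306 and 0.776 FPKM in WT skin, 0, 0.604 and 0.451 in TAp63-/- skin, 3.26 and 1.75 in WT tumours, and 7.31, 21.2, 1.59 and 5.38 in TAp63-/- tumours. No tumour overlapped with skin, and the rise in TAp63-/- was 2.49 ± 0.56 (0.00807).

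Ccl6 and Ccl9, which bind Ccr1, were lower in most tumours than in skin, without a call. Ccl6 ran from 48.3 to 95.6 FPKM in skin and from 9.44 to 160.1 in tumours. Ccl9 ran from 17.9 to 44.6 FPKM in skin and from 5.71 to 68.7 in tumours. For both genes 4 of the 6 tumours lay below every skin library, and TAp63-/- cSCC 2 was the highest tumour. The changes in TAp63-/- were -1.32 ± 0.80 for Ccl6 and -1.31 ± 0.70 for Ccl9 (limma adjusted p = 0.243 and 0.187).

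Ccr1, found on monocytes and neutrophils, was at 0.544, 1.201 and 1.39 FPKM in WT skin, 0.570, 1.13 and 0.954 in TAp63-/- skin, 7.996 and 6.54 in WT tumours, and 6.75, 28.8, 6.14 and 7.79 in TAp63-/- tumours. All tumours stood above all skin libraries, 5 of them between 6.14 and 7.996 FPKM. It rose by 2.04 ± 0.51 in WT (limma adjusted p = 0.0291) and by 2.55 ± 0.43 in TAp63-/- (0.00165). The WT call was lost without any 1 of the 5 WT libraries. Of 11 macrophage markers tested, 0 were called higher and 1, Mrc1, was called lower in TAp63-/- tumours, and none was called in WT. Cd14 stood at 8.60 to 46.4 FPKM in tumours, above its 2.84 to 7.78 in skin, without a call. The 11 markers were mixed, with 3 positive changes in each genotype. Their summed level was 402 to 888 FPKM in WT skin, 619.5 to 921 in TAp63-/- skin, 287 to 386 in WT tumours and 197 to 1192 in TAp63-/- tumours.

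Cxcl9 and Cxcl10, neighbours on chromosome 5 (chr5:92321331-92348889), are induced by interferon and bind Cxcr3 on effector T cells. Cxcl10 was at 6.94, 4.49 and 4.22 FPKM in WT skin, 2.87, 3.81 and 4.98 in TAp63-/- skin, 7.22 and 49.5 in WT tumours, and 26.1, 82.1, 5.18 and 30.3 in TAp63-/- tumours. WT cSCC 1 and TAp63-/- cSCC 3 lay just above their skin range, and the other 4 tumours far above it. The rise of 2.42 ± 0.77 in TAp63-/- (limma adjusted p = 0.0398) was lost in 6 of the 7 fits that left out 1 library, all but that without TAp63-/- cSCC 3. The change in WT was 1.74 ± 0.93 (0.248). Reads of Cxcl10 may overlap with Art3, whose locus covers the gene, and the strand used in counting is not given in the sources used here.

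Cxcl9 was at 4.80 and 62.3 FPKM in WT tumours and at 25.9, 179, 1.56 and 24.5 in TAp63-/- tumours. The lowest tumour of each genotype lay at or below the skin level of that genotype given above, and the change of 2.55 ± 1.16 in TAp63-/- was not called (adjusted p = 0.125). Their receptor Cxcr3 (on the X chromosome) was at 0.379, 0.653 and 0.961 FPKM in WT skin, 1.01, 1.40 and 0.814 in TAp63-/- skin, 1.62 and 1.22 in WT tumours, and 1.56, 0.909, 0.224 and 1.16 in TAp63-/- tumours. The WT groups did not overlap and the TAp63-/- groups did. Changes were 0.55 ± 0.31 in WT (0.273) and -0.12 ± 0.26 in TAp63-/- (0.764).

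The sharpest falls were in Ccl27a and Ccl27b, near-identical copies on chromosome 4 between which the authors' quantification may have divided reads. Their sum was 607, 758 and 768 FPKM in WT skin, 599.5, 623 and 419 in TAp63-/- skin, 49.2 and 111 in WT tumours, and 57.7, 23.8, 11.9 and 63.6 in TAp63-/- tumours. Every tumour lay far below every skin library. Taken singly, Ccl27a fell by 2.81 ± 0.60 in WT (limma adjusted p = 0.0139) and fell by 3.60 ± 0.50 in TAp63-/- (0.000503). Ccl27b fell by 3.77 ± 0.69 in WT (0.00689) and fell by 4.54 ± 0.58 in TAp63-/- (0.000276). In TAp63-/- both calls held under every alternative run. In WT both were lost without WT cSCC 1, and that of Ccl27a also without WT skin 2. Ccr10, their receptor, was at 0.103 to 0.758 FPKM in all 12 libraries and was not tested.

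The Ccr7 ligands guide dendritic cells and naive T cells into lymph vessels and nodes. Their genes share the chromosome 4 region with the Ccl27 copies (chr4:41769467-42773993). There, 4 of 6 genes fell in TAp63-/- tumours and 2 of 6 in WT tumours, against 14.2% and 6.77% of all tested genes. The 6 include the near-identical copies of Ccl27 and of Ccl21, so they are not separate observations. Ccl19 was at 14.1, 14.9 and 16.1 FPKM in WT skin, 11.3, 14.1 and 6.59 in TAp63-/- skin, 1.18 and 15.9 in WT tumours, and 2.77, 3.48, 0.719 and 1.42 in TAp63-/- tumours. All TAp63-/- tumours lay below their skin, whereas WT cSCC 2 was within the WT skin range. Ccl19 fell by 1.95 ± 0.58 in TAp63-/- (limma adjusted p = 0.0299), and that call was lost without TAp63-/- cSCC 3, TAp63-/- cSCC 4, TAp63-/- skin 1 or TAp63-/- skin 2. In WT the change was -1.40 ± 0.69 (0.215), and 0.08 without WT cSCC 1.

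Ccl21a, Ccl21b and Ccl21c are near-identical copies, so their sum is the firmer value. It was 138, 179 and 179 FPKM in WT skin, 214, 145 and 130.04 in TAp63-/- skin, 93.2 and 61.8 in WT tumours, and 40.7, 139, 9.65 and 47.7 in TAp63-/- tumours. TAp63-/- cSCC 2 lay within the skin range and the other tumours below it. Ccl21a alone was called in TAp63-/-, at -1.99 ± 0.62 (adjusted p = 0.0351), with overlapping groups. That call was lost without TAp63-/- cSCC 1, TAp63-/- cSCC 4 or any 1 of the TAp63-/- skin libraries. Ccr7, the receptor on mature dendritic cells, moved the other way. It was at 0.214, 0.429 and 0.566 FPKM in WT skin, 0.477, 0.354 and 0.528 in TAp63-/- skin, 1.68 and 1.68 in WT tumours, and 2.52, 1.65, 0.762 and 1.85 in TAp63-/- tumours. No tumour overlapped with skin. Ccr7 rose by 0.85 ± 0.23 in TAp63-/- (0.0202, lost without TAp63-/- skin 1 or TAp63-/- skin 2), and in WT the change was 0.94 ± 0.28 (0.0504). Among dendritic cell markers, 1 of 4 tested, the Langerhans cell lectin Cd207, fell in both genotypes, and the 3 lymphatic vessel markers had no call.

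Ccr4, the skin-homing receptor of T cells, was at 2.05, 2.32 and 3.28 FPKM in WT skin, 6.19, 4.12 and 1.49 in TAp63-/- skin, 0.122 and 0.660 in WT tumours, and 1.74, 0.454, 0 and 1.10 in TAp63-/- tumours. Only TAp63-/- cSCC 1 reached into its skin range. Ccr4 fell by 1.41 ± 0.40 in TAp63-/- (limma adjusted p = 0.0256, lost without TAp63-/- cSCC 3, TAp63-/- skin 1 or TAp63-/- skin 2), and the change in WT was -1.36 ± 0.48 (0.0932). Its ligands Ccl17 and Ccl22, made by dendritic cells, showed no call. Ccl17 was at 1.07, 1.02 and 1.81 FPKM in WT skin, 2.05, 1.19 and 0.383 in TAp63-/- skin, 0.607 and 0.590 in WT tumours, and 3.70, 0.817, 1.04 and 2.35 in TAp63-/- tumours. Ccl22 was at 2.66, 3.82 and 3.99 FPKM in WT skin, 3.51, 3.05 and 2.92 in TAp63-/- skin, 2.53 and 2.68 in WT tumours, and 8.73, 2.24, 1.21 and 3.10 in TAp63-/- tumours. Both were highest in TAp63-/- cSCC 1. The T cell markers held 1 call among 9 tested in TAp63-/- tumours, a rise of Foxp3, and none in WT.

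Ccl25, a ligand of Ccr9 best known in gut and thymus, was at 1.08, 1.03 and 2.05 FPKM in WT skin, 0.656, 2.02 and 0.660 in TAp63-/- skin, 4.89 and 1.96 in WT tumours, and 3.15, 3.29, 3.49 and 4.17 in TAp63-/- tumours. The TAp63-/- groups did not overlap, and WT cSCC 2 lay within the WT skin range. It rose by 1.16 ± 0.29 in TAp63-/- (limma adjusted p = 0.0148), lost without TAp63-/- skin 1 or TAp63-/- skin 3, and the change in WT was 0.84 ± 0.35 (0.146). Ccr9 was at 0.246 to 1.26 FPKM in all libraries, with changes of -0.02 ± 0.29 in WT and 0.03 ± 0.24 in TAp63-/-. Its locus overlaps 6 other entries of the table, Lztfl1 and Slc6a20a among them.

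Cxcl12, made by fibroblasts and vessels, holds cells that carry Cxcr4 in place. It was at 159, 129 and 150.0 FPKM in WT skin, 116, 132 and 119.9 in TAp63-/- skin, 22.6 and 96.01 in WT tumours, and 21.8, 33.5, 7.003 and 23.8 in TAp63-/- tumours. Every tumour was below every skin library, with WT cSCC 2 closest to skin. Cxcl12 fell by 2.64 ± 0.51 in TAp63-/- (limma adjusted p = 0.00368), and in WT the change was -1.61 ± 0.61 (0.112). Fibroblast markers fell beside it: 5 of 6 in TAp63-/- tumours and 2 of 6 in WT tumours, with summed levels of 2269 to 4644 FPKM in WT skin, 3698 to 8502 in TAp63-/- skin, 1067 to 1369.6 in WT tumours and 779 to 2537 in TAp63-/- tumours. The part of fibroblast number in the fall of Cxcl12 was not tested.

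Cxcr4 was at 10.02, 8.78 and 11.03 FPKM in WT skin, 3.85, 11.998 and 13.2 in TAp63-/- skin, 16.4 and 12.7 in WT tumours, and 15.8, 31.0, 15.7 and 18.5 in TAp63-/- tumours. Tumours of each genotype lay above their skin. Its change of 1.08 ± 0.36 in TAp63-/- was called (adjusted p = 0.0457), but 6 of the 7 fits that left out 1 library lost it, all but that without TAp63-/- skin 3. Cxcr7, the decoy receptor of Cxcl12, was among the 3 most abundant receptors in every library, skin and tumour alike. It was at 14.2 to 25.4 FPKM in tumours and 13.5 to 22.6 in skin, and was not called.

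Cxcl13 was at 2.46 and 5.32 FPKM in WT tumours and at 2.47, 5.14, 1.71 and 1.90 in TAp63-/- tumours. The TAp63-/- tumours lay below TAp63-/- skin, and the WT tumours overlapped with WT skin. It fell by 1.32 ± 0.35 in TAp63-/- (limma adjusted p = 0.0176, lost without TAp63-/- skin 1), with -0.07 ± 0.42 in WT (0.937) and an interaction of -1.25 ± 0.54 (1). Cxcr5, its receptor on B cells, stayed at or under 0.326 FPKM, and none of the 4 B cell markers reached the level needed for a test.

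Xcl1 was at 0.576 and 6.53 FPKM in WT tumours and at 0.233, 0.905, 0 and 1.18 in TAp63-/- tumours. The 2 WT tumours lay on either side of WT skin, and all TAp63-/- tumours were below their skin. Xcl1 fell by 2.07 ± 0.45 in TAp63-/- (limma adjusted p = 0.00734), against -0.23 ± 0.54 in WT (0.825). The interaction was -1.84 ± 0.71 with an unadjusted p of 0.0246 and an adjusted p of 1, the smallest unadjusted p of the 47. Xcr1, its receptor, was at 0.299 to 0.727 FPKM in skin and at 0.00846 to 0.361 in tumours, too low for a test. Markers of natural killer cells, a source of Xcl1, held 0 calls among 4 tested in TAp63-/- tumours and 1, a fall of Prf1, in WT tumours.

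Cx3cr1, on monocytes and macrophages, was at 1.05, 1.004 and 1.32 FPKM in WT skin, 1.26, 1.60 and 0.862 in TAp63-/- skin, 0.8292 and 1.55 in WT tumours, and 4.33, 1.78, 2.78 and 3.10 in TAp63-/- tumours. The TAp63-/- tumours lay above every other library. It rose by 0.81 ± 0.24 in TAp63-/- (limma adjusted p = 0.0282), a call lost without TAp63-/- cSCC 1, TAp63-/- cSCC 4, TAp63-/- skin 1 or TAp63-/- skin 3. In WT the change was 0.03 ± 0.28 (0.966). Its locus in the table overlaps 5 other genes, among them Wdr48 and Xirp1, so reads of these may be counted with it. Its membrane-bound ligand Cx3cl1 was at 5.87, 5.05 and 5.73 FPKM in WT skin, 5.31, 3.94 and 6.005 in TAp63-/- skin, 12.8 and 6.96 in WT tumours, and 6.61, 7.78, 3.62 and 4.26 in TAp63-/- tumours. Only the WT groups were free of overlap, and neither change was called (0.19 in WT and 0.856 in TAp63-/-).

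Several abundant skin ligands had no call in either tumour-skin comparison. The eotaxin Ccl11, an eosinophil attractant, ran from 54.6 to 93.4 FPKM in skin and from 13.8 to 77.2 in tumours, with a change of -1.28 ± 0.46 in TAp63-/- (limma adjusted p = 0.0593). Cxcl14, made by epithelium, ran from 45.4 to 116 FPKM in skin and from 9.26 to 69.9 in tumours. Cxcl16, a membrane-bound ligand of Cxcr6, ran from 9.33 to 15.5 FPKM in skin and from 15.4 to 46.9 in tumours, with a change of 0.93 ± 0.35 in TAp63-/- (0.0708). Its lowest tumour, TAp63-/- cSCC 3, overlapped with skin. Ccl5, a T cell and monocyte attractant, ran from 0.903 to 17.5 FPKM in skin and from 2.72 to 20.9 in tumours. The eotaxin Ccl24, the Ccr6 ligand Ccl20 and the Ccr8 ligand Ccl1 had overlapping groups in TAp63-/-, as did the receptors Ccr8 and Cxcr6.

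TAp63-/- and WT tumours were then set against each other on the 6 tumour libraries. None of the 47 genes was called, nor was any of the 14752 tested genes (0% called); at an unadjusted p under 0.05 there were 1 of the 47 and 419 of all. The median change was 0.05 over the 47 and 0.03 over all. The one gene was Cx3cr1, with values as above and a change of 0.85 ± 0.34 (unadjusted p = 0.0405, limma adjusted p = 1). On the higher side Ccl17 (0.79 ± 0.43) and Ccl7 (0.55 ± 0.35) came next, and on the lower side Cx3cl1 (-0.72 ± 0.39), Xcl1 (-1.20 ± 0.65) and Cxcl12 (-1.27 ± 0.74), each at an adjusted p of 1. Cx3cr1 and Ccl17 separated the 2 groups, and the other 4 genes overlapped. With 2 WT tumours that differ widely, a p above the threshold does not show that the genotypes are alike.

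Other genes of the pathway came from lists of atypical receptors, platelet chemokines, inducing cytokines, transcription factors, receptor signalling and processing enzymes. Of 44 tested, 12 rose and 4 fell in TAp63-/- tumours, and 5 rose and 1 fell in WT tumours. Of all tested genes, 13% rose and 14.2% fell in TAp63-/- tumours, and 4.66% rose and 6.77% fell in WT tumours. Among the cytokines that induce chemokines, Il1b was at 3.08, 1.85 and 1.96 FPKM in WT skin, 1.14, 2.60 and 1.14 in TAp63-/- skin, 48.9 and 14.6 in WT tumours, and 13.5, 74.3, 9.68 and 29.6 in TAp63-/- tumours. It was highest in WT cSCC 1 and TAp63-/- cSCC 2, the tumours highest in Cxcl1, Cxcl2 and Cxcl3. TAp63-/- cSCC 2 was the highest tumour for 24 of the 47 chemokine genes, and the part of Il1b in these values was not tested. Il1b rose by 3.10 in WT (limma adjusted p = 0.0212) and 3.26 ± 0.61 in TAp63-/- (0.00298). Il1a rose by 2.94 and 2.32, Il33 by 2.39 and 2.00 and Csf3, the neutrophil growth factor, by 2.07 and 1.72 in WT and TAp63-/-, all called. Tslp rose in TAp63-/- by 3.56 ± 0.92 (0.0161), with 232 FPKM in TAp63-/- cSCC 2 and 7.21 to 14.0 in the other 3. Tnf, Il6 and Ifng were not called in either genotype.

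Nfkb1, a subunit of NF-kB, rose by 0.80 in WT and 0.63 in TAp63-/- tumours (limma adjusted p = 0.0375 and 0.0258), while Rela, Relb and Nfkb2 were not called. Stat3 and Nfkbiz rose by 0.68 and 1.37 in TAp63-/- tumours. Their changes of 0.69 and 0.79 in WT were not called (adjusted p = 0.0595 and 0.36), and the interaction had an adjusted p of 1 for both. Ccrl1, the symbol in the table for Ackr4, which scavenges the Ccr7 ligands and Ccl25, was at 16.3, 20.5 and 26.9 FPKM in WT skin, 28.3, 16.7 and 11.65 in TAp63-/- skin, 1.54 and 3.94 in WT tumours, and 1.13, 1.77, 1.14 and 1.73 in TAp63-/- tumours. No tumour came near skin. It fell by 2.62 in WT (0.00208) and fell by 2.95 ± 0.31 in TAp63-/- (0.0001). Darc, the vessel receptor Ackr1, fell by 1.66 in TAp63-/-, the platelet chemokine Pf4 fell by 1.71 and Dpp4, a protease that trims chemokines, fell by 1.75. Mmp9, Adam10, Grk6 and the neutrophil receptor Fpr1 rose in TAp63-/- by 3.04, 0.79, 0.60 and 1.26.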

How the data were processed

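RNA from mouse skin and tumours was extracted with the Ambion miRVANA kit and made into Illumina TruSeq libraries, per the labels' protocols. The submitters' processing notes name TopHat2 2.0, Cufflinks 2.0 and build mm10. No source used here names the unit of the deposited values, which are read as FPKM because Cufflinks gives that unit and the values fit it. All 12 columns share 1 distribution: at ranks of 1 FPKM or more, at least 99.98% of the sorted values lay within 1% of the common value. Quantile normalization by the authors is inferred from this, so read depth is unknown and no counting interval is given. Genes at the same rank can have equal values in 2 libraries, as Ccl8 does in WT skin 3 and TAp63-/- skin 1.

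Entries were summed by symbol (272 symbols, Ccl25 among these, have more than 1). Of the chemokine genes, 37 of 57 have the coordinates of GENCODE M21, and positions are the table's, counted from 1. The test took the 14752 symbols that reached 1 FPKM in 2 or more of the 12 libraries and used limma 3.58.1 in R 4.3.3 on log2(FPKM + 1), with a variance trend, two-sided, and Benjamini-Hochberg adjustment over all tested genes. An adjusted p below 0.05 was called. Genotype was compared within the 6 libraries of a tissue. Tumour-skin changes and the interaction were fitted on all 12. Errors after ± are SE. The procedure was tested on simulated data.

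The genes and the lists of markers and pathway genes were chosen with earlier results of these data known, so none is independent support. Values per library are given for every gene called, its tested partner, and the 3 genes with the smallest p in each direction where none was called. Of the pathway lists, the called genes are named. The values of some genes are not reported here, though counts include them. Promoters came from a RefSeq table that held 42 of the 57 genes. Alternatives covered the pseudocount, the filter, rescaling, array weights, the variance trend, the libraries and gene types in the fit, sex as a covariate and leaving out each library.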

Additional observations from a re-analysis of the deposited data

Results flagged for a closer look

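The TAp63-/- tumours are the one group of 4 libraries, and the check for a library far from the others was made there for the 47 tested genes. Ccr1 in TAp63-/- cSCC 2, at 28.8 FPKM against 6.14 to 7.79 in the other 3, was the only value past Dixon's 95% limit for 4 samples. On the log2(FPKM + 1) scale used for the check, its gap to the nearest value was 0.854 of the group's range. Chance passes this limit in about 1 group in 20. Without that library, Ccr1 was still called higher in TAp63-/- tumours than in TAp63-/- skin.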

How the results depend on the processing

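Under the alternatives run, every gene called by limma in a tumour-skin comparison kept its direction, and the 3 other comparisons held 0 higher and 0 lower calls among the chemokine genes throughout. In TAp63-/- tumours against skin the counts were 15 higher and 8 lower; with sex as a covariate they were 6 and 2, and leaving out 1 library gave 6 to 16 higher and 4 to 12 lower, the fewest without TAp63-/- skin 1 (6 and 4). In WT the counts were 3 higher and 2 lower. Higher calls there numbered 7 with a pseudocount of 0.1, 6 with 0.5, 9 with array weights, 6 with protein-coding genes alone, 7 with only the 2 groups in the fit and 1 with sex as a covariate. Lower calls numbered 4 with only the 2 groups and 0 with sex as a covariate. Leaving out 1 library gave 2 to 7 higher and 0 to 5 lower, with 2 and 0 without WT cSCC 1 and 7 and 5 without WT cSCC 2. The cause was not tested, beyond the fewer libraries in each of those fits.

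Only genes that were not called changed sign. In WT, sex as a covariate gave Ccl17 0.513, Ccl22 1.35 and Ccr9 0.516, and array weights gave Ccr9 0.005 and Cxcl13 0.179. Leaving out 1 WT library gave Ccl19 -2.88 to 0.0775, Ccr9 -0.253 to 0.221, Cx3cr1 -0.213 to 0.266, Cxcl13 -0.503 to 0.368 and Xcl1 -1.35 to 0.901. For each of these 5 genes the ends of the range came from leaving out WT cSCC 1 or WT cSCC 2. In TAp63-/-, Ccl22 was 0.0377 with array weights and 1.23 with sex as a covariate, where it was called. Ccr9 was -0.054 with a pseudocount of 0.1 and -0.0068 with median-of-ratios rescaling, and Cxcr3 was 0.312 with sex as a covariate. Leaving out 1 TAp63-/- library gave Ccl22 -0.428 to 0.284, Ccr9 -0.106 to 0.177, Cx3cl1 -0.0794 to 0.229 and Cxcr3 -0.264 to 0.0902, the highest of each without TAp63-/- cSCC 3.

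No paired analysis was possible because the labels number the libraries across groups and share no replicate number between groups. All skin libraries are male, so sex could not enter the skin comparison. Where leaving out a WT tumour left 1, that library is assumed to vary like the other groups. Read depth is unknown, so the limit it sets on genes near 0 FPKM cannot be given.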
